A study of Mus musculus with 13 samples.

Results

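The genes described here were 54 named genes of mitosis, the spindle and the kinetochore, found by their symbols among the 24328 genes of each deposited table. All 54 were present, and all 54 passed the filter on low counts. The RNA came from 13 mouse sequencing libraries. Cells of LSC, the leukemia stem cells of an MLL-AF10 leukemia, received A-485, an inhibitor of the acetyltransferases p300 and CBP, for 0, 8, 24, 48 or 72 h, with 2 libraries per time. The 0 h libraries were labelled untreated, and no vehicle group accompanied the later times. No dose of A-485 is stated in the labels. The leukemia cells were grown in RPMI with fetal bovine serum and WEHI-conditioned medium. A further 3 libraries from bone marrow held 1 population each: mAML, the mature cells of the leukemia, LSC, and GMP, the wild-type granulocyte-monocyte progenitors. Both leukemia populations carried the label tumor. No label said whether the 2 libraries of a time were made from different cultures, so the spread behind each p-value may be technical.

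A cell that enters mitosis activates the kinase Cdk1 with its cyclins, condenses its chromosomes, and builds a bipolar spindle whose microtubules attach to kinetochores. The spindle checkpoint holds the anaphase-promoting complex inactive until every kinetochore is attached, after which securin and the mitotic cyclins are degraded, the sister chromatids part and the cell divides. Transcripts of these genes accumulate in G2 and mitosis and are low in cells that do not divide, so in bulk RNA their levels depend on how many cells cycle. The same dependence means that fewer dividing cells and less RNA per dividing cell cannot be told apart here. By role, the list held 8 genes for Cdk1 and its regulators, 7 for mitotic kinases and the spindle checkpoint, 4 for the chromosomal passenger complex, 7 for the kinetochore and centromere, 14 for kinesins and spindle proteins, 2 for the cytokinesis scaffold, 5 for anaphase control and cohesion protection, and 7 for condensin I and the mitotic chromosome.

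Total expected counts ranged from 6467764 to 9763276 in the time course, and were 47257642 in mAML, 40468515 in LSC and 24532508 in GMP. Markers of myeloid progenitors, 10 genes such as Kit, Mpo and Elane, summed to 10847 and 10357 TPM (a level scaled for transcript length and depth) at 0 h, 1790 and 704 TPM at 8 h, 1050 and 472 TPM at 24 h, 899 and 733 TPM at 48 h, and 472 and 595 TPM at 72 h. Here and below a pair of values gives replicate 1 and then replicate 2. Within that list the log2 changes on counts at 72 h included -9.98 for Kit and -1.06 for Fcgr3. Other marker lists fell too from 0 to 72 h. Monocyte and macrophage markers went from 8056 and 5762 to 457 and 380 TPM, and mature neutrophil markers from 2187 and 857 to 62.2 and 81.1 TPM. Erythroid markers went from 63.0 and 45.3 to 13.2 and 14.7 TPM, and T and NK cell markers from 199 and 104 to 4.85 and 4.29 TPM. RNA composition moved with time as well. The mean transcript length behind a read was 3530 and 3423 nucleotides at 72 h against 2861 and 2848 at 0 h, and the nuclear RNA Malat1 had 745 and 819 TPM at 72 h against 53.3 and 54.4 TPM at 0 h. The part of these shifts in the results was not tested. The pair of 24 h libraries stood apart from each other in the members, as described below.

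The members were highest early and nearly gone late. Their summed level was 3246 and 3263 TPM at 0 h, 5330 and 6459 TPM at 8 h, 2362 and 1187 TPM at 24 h, 463 and 506 TPM at 48 h, and 515 and 458 TPM at 72 h. Both 8 h libraries lay above both 0 h libraries, and all libraries from 24 h on lay below them. TPM also rose in genes at large. In log2(TPM + 1) the median change against 0 h of all genes past the filter was 0.41 at 8 h. It was 0.43 at 24 h, 0.56 at 48 h and 0.62 at 72 h. The members' median on that scale was 0.97 at 8 h. By mean scaled CPM (counts scaled for depth), 51 of the 54 members were highest at 8 h and the other 3 at 0 h, while 39 were lowest at 72 h, 14 at 48 h and 1 at 0 h. The 1 member lowest at 0 h was Pttg1. On that scale the members had a median of 2.60% of their 0 h level at 72 h, from 0% for Ccnb2 to 256% for Pttg1. Of the 54 members, 37 had under 5% left, 46 under 10%, 6 from 10% to 50%, and 2, Pttg1 and Bub3, at least 50%.

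**Figure D1:**
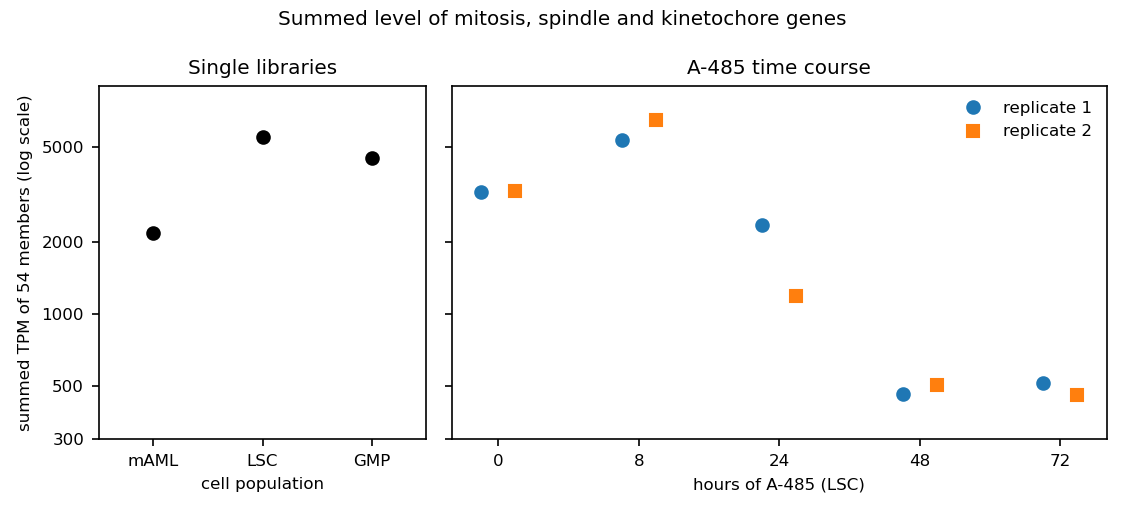
Summed TPM of the 54 members in each library (log axis), with the single libraries on the left and the A-485 time course on the right, where circles and squares are replicates 1 and 2. The 8 h libraries reached 5330 and 6459 TPM, the 24 h libraries 2362 and 1187 TPM, and the 72 h libraries 515 and 458 TPM.

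Changes were tested on counts with edgeR's quasi-likelihood test, with p-values adjusted by Benjamini-Hochberg over the 11119 genes tested; those under 0.05 after adjustment passed. At 8 h against 0 h, 5 members rose, none fell and 49 did not pass the test. The 5 were 9.26% of the members, below the 17.9% of all genes tested that were called higher, and 21% of all genes were called lower. At an unadjusted p under 0.05, 12 members were higher, 22.2% of the list against 23.5% of all genes. DESeq2 called 9 members higher, 16.7% of the list against 17.7% of all genes. The median log2 change of the members was 0.54, against 0.01 for all genes tested. In scaled CPM both 8 h libraries lay above both 0 h libraries for 48 members, 88.9% of the list against 36.7% of all genes. Cks2 and Cdca8 had both below, 3.7% against 36.4% of all genes, and Anln, Aurkb, Cenpf and Nuf2 overlapped.

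The count of calls at 8 h depended on the setting. Scaling by library size alone moved the median of all genes to 0.33 at 8 h, and 23 members were then called higher, 42.6% of the list against 36.7% of all genes. Relative to the median of all genes the members' median was 0.52 under both scalings. Under library size alone 72.8% of the calls among all genes were rises, against 46% with the original scaling. Without either 24 h library, or without both, 20 members were called higher at 8 h. That was 37% of the list, against 18.6% of all genes without either 24 h library and 19.2% without both. The members' share thus lay above that of all genes in these fits, whereas the 9.26% lay below the 17.9%. Without 8 h replicate 1 the members' median was 0.67, and without 8 h replicate 2 it was 0.39. Without 0 h replicate 1 it was 0.58, and without 0 h replicate 2 it was 0.61. The median of all genes in these fits lay between 0.004 and 0.063.

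At 24 h against 0 h, 44 members fell, Pttg1 rose and 9 did not pass the test. The 9 were Ccnb2, Cdc25b, Cdc25c, Cenpf, Kif23, Nusap1, Aspm, Cdc20 and Mki67, with log2 changes between -1.32 and -0.71. The fallen members were 81.5% of the list, against 27.1% of all genes tested called lower, with 23.2% called higher. The median log2 change was -1.41, against -0.03 for all genes. Without 24 h replicate 1, 52 members were called lower, with a median of -2.08. Without 24 h replicate 2, 33 were called lower, with a median of -0.96, and without either 0 h library 29. Both 24 h libraries lay below both 0 h libraries in 53 members, 98.1% of the list against 40.2% of all genes.

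At 48 h against 0 h, 53 members fell and Pttg1 rose, with a median log2 change of -4.59. That was 98.1% of the list against 30.5% of all genes called lower, and 25.2% of all genes were called higher. The same split of 53 lower and 1 higher was found at 72 h against 0 h, where 29.4% of all genes were called lower and 25.9% higher, and the median log2 change was -5.26. In those 53 members both libraries lay below both 0 h libraries, which held for 43.5% of all genes at 48 h and 41.8% at 72 h. Without the 24 h libraries the counts were again 53 lower and 1 higher at both times. The patterns of calls over 8, 24, 48 and 72 h fell into 4 kinds. In 40 members the first call was a fall at 24 h, in 9 it was a fall at 48 h, Bub3, Spc25, Ckap2 and Smc4 rose at 8 h and fell at each later time, and Pttg1 rose at all 4.

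From step to step, 51 members fell between 8 and 24 h, where 12% of all genes were called lower. The 3 members not called in that step were Ccnb2, Cks2 and Pttg1. Without 24 h replicate 1 the count was 53, and without 24 h replicate 2 it was 43. Between 24 and 48 h, 47 members fell, against 2.1% of all genes, with a median log2 change of -3.14. The call was not made for Anln, Bub3, Cenpi, Cks2, Incenp, Pttg1 and Smc4. The count was 0 without 48 h replicate 1, when no gene at all was called lower, and 29 without 48 h replicate 2; it was 38 without 24 h replicate 1 and 51 without 24 h replicate 2. Between 48 and 72 h edgeR called no member and no other gene in either direction. At an unadjusted p under 0.05, 7 members were lower at 72 h than at 48 h and 1 was higher, where 174 of all genes were lower and 324 higher. DESeq2 called 1 member lower, with 4 of all genes lower and 7 higher. At 72 h against 8 h, 53 members fell, where 17.2% of all genes were called lower.

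**Figure D2:**
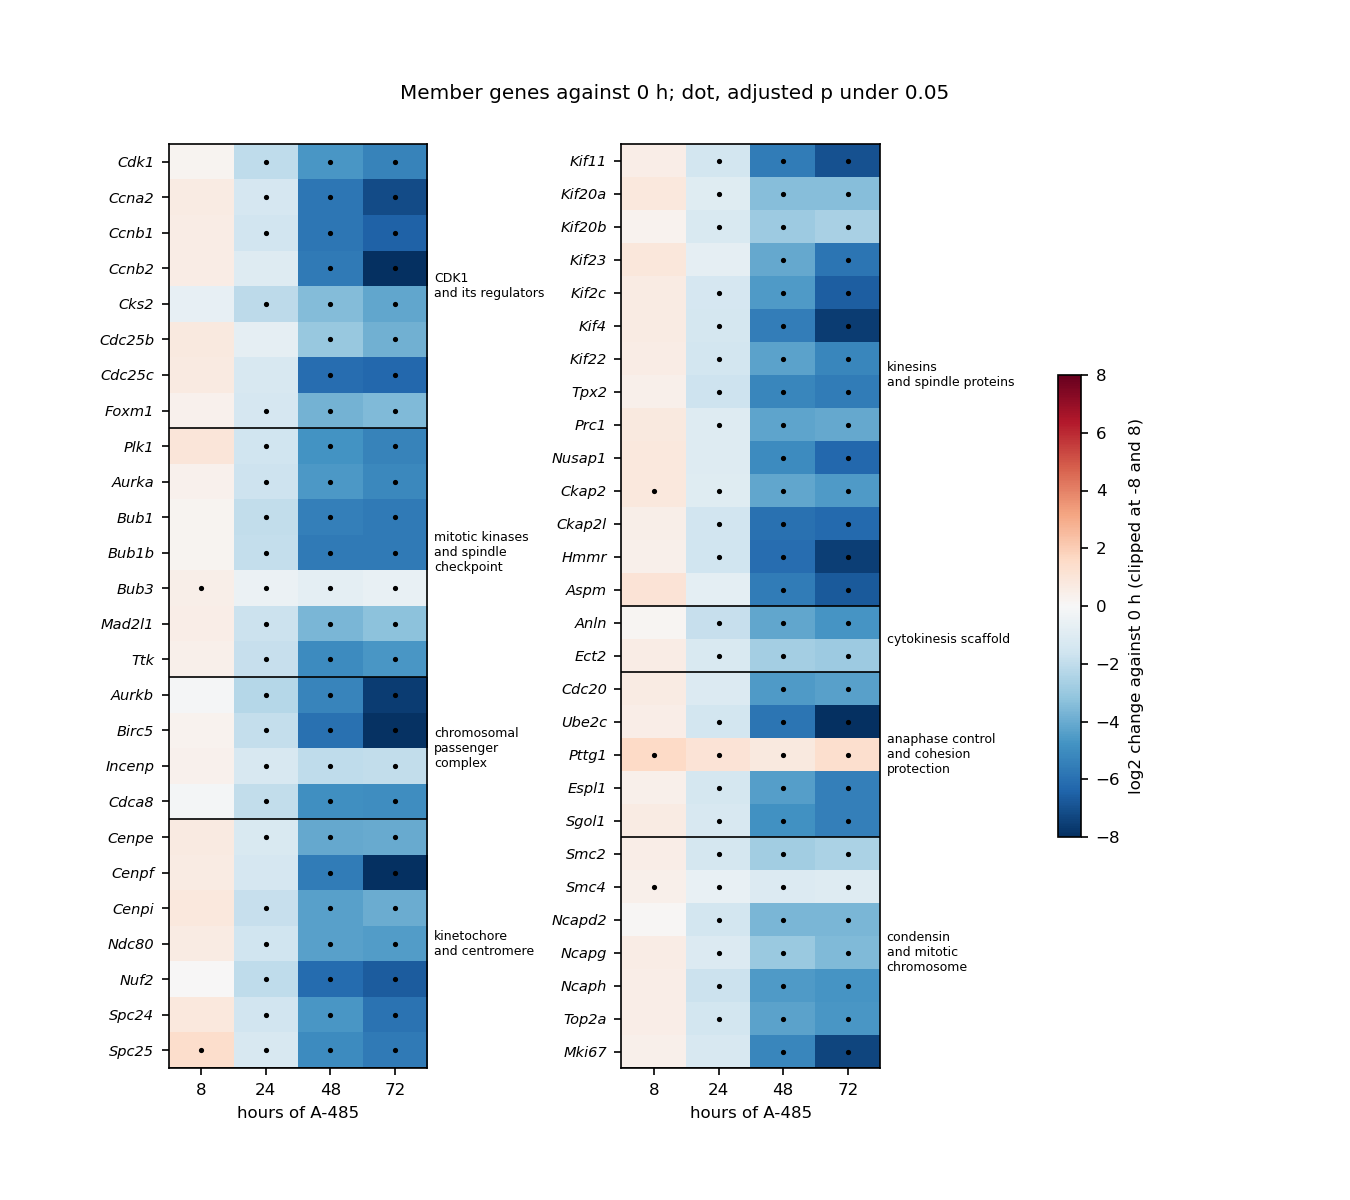
Log2 change of each member at 8, 24, 48 and 72 h of A-485 against 0 h (n = 2 libraries per time), grouped by role; colour is clipped at -8 and 8, red is higher than 0 h, blue is lower, and a dot marks an adjusted p under 0.05. The 8 h columns hold 5 dots, and Pttg1 is the 1 row that is red at all 4 times.

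Many promoters of G2 and mitosis genes carry a cell cycle homology region (CHR), bound by the MuvB complexes, together with CCAAT boxes, bound by NF-Y, and this is background knowledge rather than a result. RefSeq promoter windows on GRCm38.p6, a later build than the mm9 used for counting, were matched for 45 of the 54 members. The 250 bases before the first listed start were searched on both strands for 2 CHR forms, TTTGAA as well as TTTAAA, in addition to the box CCAAT. The form TTTGAA was present in 37.8% of the 45 members and in 16.3% of 27025 promoters, and TTTAAA in 13.3% and 12.1%. At least 1 CCAAT was found in 73.3% of the members and 34.5% of all promoters, and at least 2 in 48.9% and 10.5%. A CHR form of either kind together with a CCAAT was found in 44.4% of the members and 9% of all promoters. A match to these letters is a description, not a bound site.

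The windows of 4 members are shown: Ccnb2 and Pttg1 had the lowest and the highest share of their 0 h level at 72 h, Bub3 had the second highest, and Mki67 is a common marker of cycling cells. They were chosen with their motifs known, and have motif letters in capitals (ATTGG and TTCAAA are CCAAT and TTTGAA read on the opposite strand) and positions counted back from the base before the start. Ccnb2 and Mki67, which fell, are followed by Bub3, called lower at 72 h with at least 50% of its 0 h level, and Pttg1, which rose. The windows are chr9:70421555-70421804 on the minus strand for Ccnb2, chr7:135716380-135716629 on the minus strand for Mki67, chr7:131560120-131560369 on the plus strand for Bub3, and chr11:43425982-43426231 on the minus strand for Pttg1.
Ccnb2: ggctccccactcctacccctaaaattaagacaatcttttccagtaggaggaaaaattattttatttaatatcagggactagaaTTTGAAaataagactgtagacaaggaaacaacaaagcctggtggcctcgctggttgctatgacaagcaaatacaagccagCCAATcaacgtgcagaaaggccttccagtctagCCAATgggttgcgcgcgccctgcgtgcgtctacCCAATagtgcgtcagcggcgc
Mki67: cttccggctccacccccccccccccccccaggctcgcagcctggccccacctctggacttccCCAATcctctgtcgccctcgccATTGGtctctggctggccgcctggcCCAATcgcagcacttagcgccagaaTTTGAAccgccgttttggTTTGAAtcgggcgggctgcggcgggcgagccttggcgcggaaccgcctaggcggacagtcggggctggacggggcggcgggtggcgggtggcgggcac
Bub3: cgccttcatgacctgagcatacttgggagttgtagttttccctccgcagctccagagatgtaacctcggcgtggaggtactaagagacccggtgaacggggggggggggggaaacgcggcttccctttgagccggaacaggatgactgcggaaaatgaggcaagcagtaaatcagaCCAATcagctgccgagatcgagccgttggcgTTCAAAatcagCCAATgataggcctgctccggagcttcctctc
Pttg1: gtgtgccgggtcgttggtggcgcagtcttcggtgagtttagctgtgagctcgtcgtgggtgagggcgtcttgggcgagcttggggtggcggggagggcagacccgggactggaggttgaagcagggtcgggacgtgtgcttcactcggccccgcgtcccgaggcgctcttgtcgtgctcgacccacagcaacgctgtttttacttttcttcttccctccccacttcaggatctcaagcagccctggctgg
Ccnb2 held 1 TTTGAA from -167 to -162 and 3 CCAAT boxes, and Mki67 held 2 TTTGAA, from -116 to -111 and from -98 to -93, and 3 CCAAT boxes. Bub3 held 1 TTTGAA on the opposite strand from -43 to -38 and 2 CCAAT boxes. None of the 3 motifs was found in the Pttg1 window. The same held for Mad2l1, Cenpi, Ndc80, Nuf2, Kif20b, Nusap1, Anln, Sgol1 and Ncaph, all of which were called lower at 72 h. Kif4 and Hmmr, each with less of its 0 h level left at 72 h than Mki67, had neither CHR form in their windows, with 2 and 5 CCAAT boxes.

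The calls by role below stand beside the same shares of all genes. These were 17.9% called higher at 8 h, and 27.1%, 30.5% and 29.4% called lower at 24, 48 and 72 h. No role was tested against them. Among Cdk1 and its regulators, none of 8 passed the test at 8 h, 5 fell at 24 h, and all 8 fell at 48 and 72 h. Cdk1, the kinase that drives entry into mitosis, had 69.3 and 66 TPM at 0 h, 98.5 and 112 at 8 h, 32.5 and 16 at 24 h, 2.63 and 6.11 at 48 h and 3.25 and 2.31 at 72 h. Its 8 h libraries were the highest and every library from 24 h on was below those of 0 h, with log2 changes of -2.00 ± 0.35 (SE, n = 2 libraries per time; edgeR adjusted p = 0.00191) at 24 h and -5.32 ± 0.44 (edgeR adjusted p = 3.11e-05) at 72 h. Ccnb1, a B-type cyclin that activates Cdk1, had 88.9 and 96.5 TPM at 0 h, 169.8 and 219 at 8 h, 64.3 and 26.2 at 24 h, 1.67 and 3.74 at 48 h and 2.06 and 1.35 at 72 h. At 24 h replicate 2 had fallen further than replicate 1, and both lay below 0 h, with a log2 change of -1.56 ± 0.37 (edgeR adjusted p = 0.00826) at 24 h and -6.48 ± 0.52 (edgeR adjusted p = 2.89e-05) at 72 h.

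Ccnb2, the other B-type cyclin of the list, had 126 and 123 TPM at 0 h, 229 and 272 at 8 h, 125 and 48.6 at 24 h, 0.77 and 7.01 at 48 h and 0 and 0 at 72 h. Its 24 h replicate 1 lay within the 0 h range in TPM and below it in scaled CPM, while no read was assigned to it in either 72 h library. Against a floor of 3 counts over the group, it was at least 773-fold lower at 72 h, where 0 counts stood against 2166 at 0 h. Cks2, a small subunit that binds Cdk1, had the highest mean TPM of the list, with 415 and 402 TPM at 0 h, 337 and 374 at 8 h, 204 and 68.9 at 24 h, 83 and 36.2 at 48 h and 44.6 and 29.4 at 72 h. It was lower at 8 h than at 0 h in both libraries, with a log2 change of -0.63 ± 0.45 (edgeR adjusted p = 0.286) that did not pass the test, and it fell at 24 h, with -2.07 ± 0.47 (edgeR adjusted p = 0.00649), and at 72 h, with -4.14 ± 0.53 (edgeR adjusted p = 2.77e-04).

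Cdc25b and Cdc25c remove inhibitory phosphates from Cdk1. Cdc25b had 22.2 and 25.5 TPM at 0 h, 51.4 and 62 at 8 h, 29.5 and 12.7 at 24 h, 3.41 and 5.99 at 48 h and 2.72 and 2.79 at 72 h. Cdc25c had 12.2 and 8.8 TPM at 0 h, 18.4 and 30.0 at 8 h, 8.63 and 3.59 at 24 h, 0 and 0.46 at 48 h and 0.42 and 0 at 72 h. Both were low from 48 h on, and with 3 summed counts at 72 h against 243 at 0 h the log2 ratio of Cdc25c was -6.44, with a 95% counting interval from -8.73 to -4.87. Foxm1, a transcription factor that drives G2 and mitosis genes, had 21.2 and 25.1 TPM at 0 h, 37.9 and 43.9 at 8 h, 18 and 7.92 at 24 h, 2.73 and 2.62 at 48 h and 3.04 and 3.66 at 72 h. Its log2 change was smaller than that of Ccnb1, a difference not tested, with a value of -3.50 ± 0.35 (edgeR adjusted p = 7.89e-05) at 72 h, and its 48 and 72 h libraries lay close together.

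**Figure D3:**
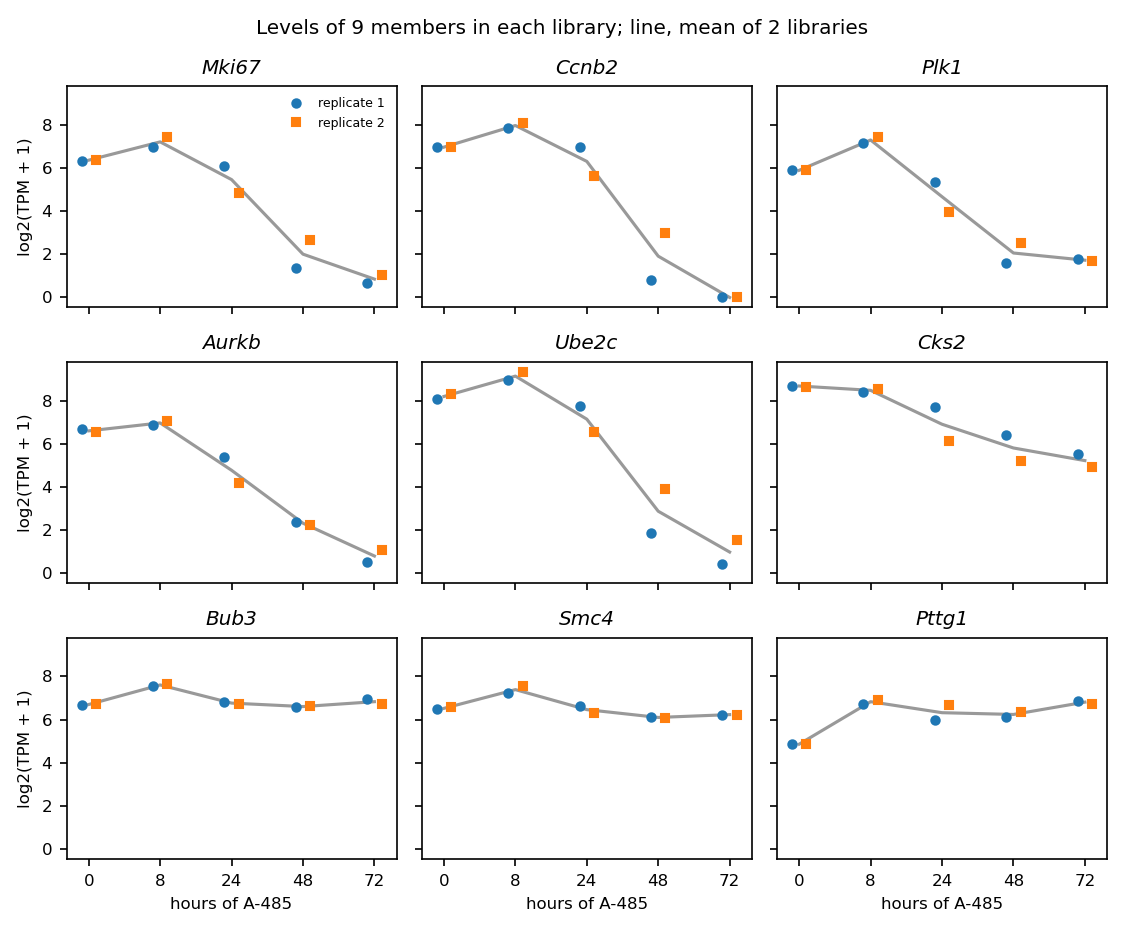
Level of 9 members as log2(TPM + 1) in each library of the time course, with circles for replicate 1, squares for replicate 2 and a line through the mean of the 2 libraries. Mki67, Ccnb2, Plk1, Aurkb and Ube2c run down to near the axis, Cks2 ends higher, and Bub3, Smc4 and Pttg1 stay far from it.

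Among the mitotic kinases and spindle checkpoint genes, Bub3 rose at 8 h and 6 did not pass the test, and all 7 fell at 24, 48 and 72 h. Plk1, a kinase of centrosome maturation and mitotic exit, had 58.2 and 58.7 TPM at 0 h, 141 and 173 at 8 h, 40.0 and 14.8 at 24 h, 2.02 and 4.75 at 48 h and 2.42 and 2.2 at 72 h. Both 8 h libraries were well above those of 0 h in TPM, yet the log2 change of 0.98 ± 0.39 (edgeR adjusted p = 0.0753) did not pass the test, and it passed without the 24 h libraries. At 72 h its change was -5.36 ± 0.52 (edgeR adjusted p = 7.05e-05). Aurka, the Aurora kinase of centrosomes and spindle poles, had 45.1 and 61.3 TPM at 0 h, 86.4 and 100.3 at 8 h, 35.4 and 14.1 at 24 h, 3.01 and 3.92 at 48 h and 2.44 and 2.48 at 72 h. Its 72 h change was -5.14 ± 0.45 (edgeR adjusted p = 4.21e-05).

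Bub3, which carries checkpoint proteins to kinetochores, had 99.9 and 106 TPM at 0 h, 189.8 and 197 at 8 h, 112 and 103 at 24 h, 95.6 and 96.8 at 48 h and 121 and 104 at 72 h. Its 8 h libraries were the highest, the 24 and 72 h libraries overlapped those of 0 h in TPM, and the 48 h libraries lay just below them. On counts it rose at 8 h, with 0.46 ± 0.10 (edgeR adjusted p = 0.00579), and fell at 72 h, with -0.58 ± 0.10 (edgeR adjusted p = 0.00117). With limma on log2(TPM + 1) the changes at 24 and 72 h were 0.06 (adjusted p = 0.595) and 0.13 (adjusted p = 0.271), so its late direction depended on the scale. On that scale the median of all genes was 0.43 and 0.62, so Bub3 lay below it there too. With library size alone the 72 h change was -0.21 (adjusted p = 0.0844), where the median of all genes was 0.35. Bub1, Bub1b, Mad2l1 and Ttk, its partners in the checkpoint, had log2 changes from -5.69 to -3.27 at 72 h.

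All 4 genes of the chromosomal passenger complex, which corrects faulty attachments, fell at 24, 48 and 72 h, and none passed the test at 8 h. Aurkb, its kinase, had 101 and 91.3 TPM at 0 h, 115 and 134 at 8 h, 40.6 and 16.9 at 24 h, 4.2 and 3.78 at 48 h and 0.42 and 1.13 at 72 h. The 8 h CPM overlapped those of 0 h, with a log2 change of -0.07 ± 0.32 (edgeR adjusted p = 0.875), a sign that turned to 0.24 with library size alone and 0.37 with limma on TPM. The median of all genes was 0.33 and 0.41 in those settings. The fall at 24 h, -2.26 ± 0.34 (edgeR adjusted p = 9.85e-04), had the largest log2 size among the members at that time, and the 72 h change was -7.60 ± 0.52 (edgeR adjusted p = 1.50e-05). Birc5, also called survivin, had 143 and 132 TPM at 0 h, 214 and 232 at 8 h, 72.5 and 29.1 at 24 h, 1.41 and 4.43 at 48 h and 0.07 and 0.73 at 72 h. At 72 h it was nearly undetected, with a log2 change of -7.89 ± 0.71 (edgeR adjusted p = 4.66e-05).

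Cdca8, or borealin, had 114 and 115 TPM at 0 h, 138 and 147 at 8 h, 56.8 and 27.1 at 24 h, 5.24 and 7.14 at 48 h and 6.87 and 5 at 72 h. Its change at 8 h was -0.13 ± 0.28 (edgeR adjusted p = 0.734) and turned positive, to 0.18, with library size alone, where the median of all genes was 0.33. Incenp, the scaffold of the complex, had the smallest change of the 4, with a log2 change of -2.00 ± 0.24 (edgeR adjusted p = 1.88e-04) at 72 h. Its TPM were 25.6 and 26.6 at 72 h against 64.2 and 62.9 at 0 h.

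Of the 7 kinetochore and centromere genes, Spc25 rose at 8 h, 6 fell at 24 h and all 7 fell at 48 and 72 h. Ndc80, Nuf2, Spc24 and Spc25 form the complex that grips microtubules. Spc25 had 37.4 and 34.3 TPM at 0 h, 126 and 132 at 8 h, 27.9 and 14.6 at 24 h, 2.23 and 1.34 at 48 h and 1.47 and 1.11 at 72 h. Both 8 h libraries stood above 0 h, with a log2 change of 1.40 ± 0.25 (edgeR adjusted p = 0.00305), and the 72 h change was -5.63 ± 0.37 (edgeR adjusted p = 1.37e-05). Nuf2, in the same complex, had 42.5 and 43.1 TPM at 0 h, 57.4 and 63.7 at 8 h, 21.6 and 8.08 at 24 h, 0.57 and 1.32 at 48 h and 1.42 and 0 at 72 h. Its 8 h libraries overlapped those of 0 h in CPM, with a log2 change of 0.05 ± 0.50 (edgeR adjusted p = 0.946), and at 48 h the change was -6.17 ± 0.74 (edgeR adjusted p = 2.02e-04).

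Spc24, which pairs with Spc25, had 33.9 and 29.3 TPM at 0 h, 86.1 and 65.9 at 8 h, 23.1 and 7.83 at 24 h, 1.82 and 2.12 at 48 h and 1.29 and 0.39 at 72 h. Cenpf, a large protein of the outer kinetochore, had 9.93 and 13.4 TPM at 0 h, 18 and 32.8 at 8 h, 9.48 and 3.99 at 24 h, 0.04 and 0.73 at 48 h and 0.04 and 0.02 at 72 h. With 3 counts at 72 h against 1719 at 0 h, its log2 ratio was -9.26, with a 95% counting interval from -11.54 to -7.71. Cenpi, a part of the constitutive centromere network, had 7.29 and 5.72 TPM at 0 h, 15 and 17.8 at 8 h, 3.28 and 1.92 at 24 h, 0.15 and 0.91 at 48 h and 0.82 and 0.56 at 72 h. All 3 had their lowest libraries at 48 or 72 h, without overlap with 0 h.

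All 14 kinesins and spindle proteins fell at 48 and 72 h, 11 fell at 24 h, and 1, Ckap2, rose at 8 h. Tpx2, which activates Aurora A and nucleates spindle microtubules, had 61.2 and 59.6 TPM at 0 h, 101 and 122 at 8 h, 38 and 17.4 at 24 h, 1.56 and 3.74 at 48 h and 1.81 and 2.27 at 72 h. Its changes were 0.44 ± 0.34 (edgeR adjusted p = 0.342) at 8 h and -5.60 ± 0.46 (edgeR adjusted p = 3.11e-05) at 72 h. Prc1, which bundles microtubules of the spindle midzone, had 50.1 and 50.7 TPM at 0 h, 94.8 and 146 at 8 h, 47.8 and 21.8 at 24 h, 3.54 and 4.96 at 48 h and 5.21 and 4.32 at 72 h. Its change at 72 h was -4.12 ± 0.39 (edgeR adjusted p = 5.71e-05).

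Ckap2, a microtubule-associated protein, had 15.3 and 18.6 TPM at 0 h, 31.4 and 52.8 at 8 h, 16.2 and 9.09 at 24 h, 1.46 and 1.53 at 48 h and 1.1 and 1.28 at 72 h. Its rise at 8 h, 0.86 ± 0.29 (edgeR adjusted p = 0.0462), had the highest adjusted p of the 5. It did not pass without 8 h replicate 2, at 0.47 (edgeR adjusted p = 0.308), nor without any 1 of the 0, 48 or 72 h libraries, where the adjusted p lay between 0.0603 and 0.192. Hmmr, a spindle protein and hyaluronan receptor, had 33.8 and 31.2 TPM at 0 h, 47.4 and 70.5 at 8 h, 21.5 and 9.67 at 24 h, 0.4 and 1.12 at 48 h and 0.39 and 0.18 at 72 h. Aspm, a spindle pole protein, had 8.24 and 9.91 TPM at 0 h, 18.5 and 35.6 at 8 h, 10.7 and 4.71 at 24 h, 0.1 and 0.51 at 48 h and 0.15 and 0.13 at 72 h. Hmmr changed by -6.09 ± 0.52 (edgeR adjusted p = 3.66e-05) at 48 h and Aspm by -5.58 ± 0.63 (edgeR adjusted p = 1.45e-04). The kinesins Kif11, Kif20a, Kif23, Kif2c, Kif4 and Kif22 had log2 changes from -7.62 to -3.39 at 72 h, and Kif20b had -2.58. Kif20b had 19.2 and 20.0 TPM at 0 h, 29.2 and 35.6 at 8 h, 15.8 and 8.11 at 24 h, 3.44 and 4.78 at 48 h and 6.96 and 3.89 at 72 h. Kif20a shared 29.3% of its exonic bases with Cdc23 on the other strand in GENCODE M21, so reads of the pair may mix if the counting was not stranded, which was not stated.

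Both genes of the cytokinesis scaffold fell at 24, 48 and 72 h and did not pass the test at 8 h. Ect2, the exchange factor that activates RhoA at the cleavage plane, had 28.2 and 30.6 TPM at 0 h, 51.3 and 70.0 at 8 h, 24 and 12.7 at 24 h, 6.95 and 7.4 at 48 h and 6.56 and 6.27 at 72 h. Anln, which links the contractile ring to its cortex, had 25.3 and 23.5 TPM at 0 h, 33.8 and 40.8 at 8 h, 13.7 and 5.6 at 24 h, 1.42 and 3.03 at 48 h and 0.91 and 2.04 at 72 h. Ect2 lay at like levels at 48 and 72 h, with a change of -2.91 ± 0.28 (edgeR adjusted p = 6.59e-05) at 72 h against -4.74 ± 0.53 (edgeR adjusted p = 1.39e-04) for Anln.

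Among the 5 genes of anaphase control and cohesion protection, Pttg1 rose at 8, 24, 48 and 72 h while Cdc20, Ube2c, Espl1 and Sgol1 fell at 48 and 72 h. Cdc20, which activates the anaphase-promoting complex, had 92.3 and 92.3 TPM at 0 h, 189 and 209 at 8 h, 81.9 and 39.8 at 24 h, 2.75 and 9.76 at 48 h and 9.55 and 5.47 at 72 h. Its change was -1.12 ± 0.42 (edgeR adjusted p = 0.0509) at 24 h, which did not pass the test, and -4.34 ± 0.50 (edgeR adjusted p = 1.71e-04) at 72 h. Ube2c, the ubiquitin-conjugating enzyme of that complex, had 269 and 317 TPM at 0 h, 489 and 644 at 8 h, 214 and 91.6 at 24 h, 2.63 and 13.8 at 48 h and 0.35 and 1.89 at 72 h. It had the highest TPM of the list at 8 h and was close to 0 at 72 h, with a change of -8.62 ± 0.79 (edgeR adjusted p = 5.05e-05). Ube2c shared 22.8% of its exonic bases with Tnnc2 on the other strand.

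Pttg1, or securin, the inhibitor of separase, had 28 and 28.1 TPM at 0 h, 105 and 121 at 8 h, 61.6 and 101 at 24 h, 69.5 and 79.6 at 48 h and 116 and 106 at 72 h. Every treated library lay above both 0 h libraries. Its log2 changes were 1.60 ± 0.23 (edgeR adjusted p = 0.00108) at 8 h, 1.09 ± 0.23 (edgeR adjusted p = 0.00475) at 24 h, 0.81 ± 0.23 (edgeR adjusted p = 0.0166) at 48 h and 1.35 ± 0.23 (edgeR adjusted p = 0.00128) at 72 h. The call at 48 h was lost without either 0 h library (adjusted p = 0.0561 and 0.058) or without 48 h replicate 2 (adjusted p = 0.107). Between 72 h and 8 h its change of -0.25 did not pass the test (edgeR adjusted p = 0.419). Espl1, the separase that securin holds inactive, had 14.2 and 12.5 TPM at 0 h, 20.9 and 27.4 at 8 h, 9.73 and 4.92 at 24 h, 0.57 and 1.41 at 48 h and 0.55 and 0.44 at 72 h. Sgol1, shugoshin, which guards centromeric cohesion, had 12.7 and 11.7 TPM at 0 h, 20.5 and 31.5 at 8 h, 9.63 and 4.94 at 24 h, 0.29 and 1.07 at 48 h and 0.35 and 0.51 at 72 h. Both fell where Pttg1 rose, with log2 changes of -5.46 ± 0.46 (edgeR adjusted p = 3.58e-05) for Espl1 and -5.50 ± 0.54 (edgeR adjusted p = 7.33e-05) for Sgol1 at 72 h.

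All 7 genes of condensin I and the mitotic chromosome fell at 48 and 72 h, 6 fell at 24 h, and Smc4 rose at 8 h. Mki67, which coats mitotic chromosomes and is the usual marker of cycling cells, had 80.0 and 82.5 TPM at 0 h, 125 and 173 at 8 h, 67 and 27.5 at 24 h, 1.56 and 5.3 at 48 h and 0.6 and 1.03 at 72 h. Its 24 h change of -1.31 ± 0.49 (edgeR adjusted p = 0.0525) just missed the threshold, and its 72 h change was -7.34 ± 0.69 (edgeR adjusted p = 5.74e-05). Top2a, the topoisomerase that untangles sister chromatids, had 158 and 138 TPM at 0 h, 267 and 308 at 8 h, 107 and 49 at 24 h, 11 and 13.8 at 48 h and 10.01 and 8.93 at 72 h. Its changes were -1.45 ± 0.29 (edgeR adjusted p = 0.00381) at 24 h and -4.69 ± 0.34 (edgeR adjusted p = 1.89e-05) at 72 h.

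Smc4 and Smc2 are the paired ATPase subunits of condensin. Smc4 had 88.2 and 93.5 TPM at 0 h, 149.8 and 185 at 8 h, 97.5 and 77.7 at 24 h, 69.4 and 65.7 at 48 h and 73.9 and 74.1 at 72 h. It rose at 8 h, with 0.43 ± 0.12 (edgeR adjusted p = 0.0252), a call lost without either 0 h library (adjusted p = 0.105 and 0.066) or without 8 h replicate 2 (adjusted p = 0.145). It fell at 72 h, with -1.01 ± 0.13 (edgeR adjusted p = 2.52e-04), a fall that did not pass with limma on TPM, at -0.29 (adjusted p = 0.0865). The median of all genes was 0.62 in that setting. Smc2 had 44.9 and 33.4 TPM at 0 h, 67.2 and 89.8 at 8 h, 28.2 and 14.9 at 24 h, 9.09 and 9.24 at 48 h and 11.5 and 11 at 72 h. The fall of Smc2 at 72 h, -2.52 ± 0.28 (edgeR adjusted p = 1.49e-04), was larger than that of Smc4, though the difference was not tested. Ncapd2, Ncapg and Ncaph, the subunits found in condensin I alone, changed by -3.64, -3.56 and -4.72 at 72 h.

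Other genes of the same machinery were counted from lists set beside the members. Of 34 other spindle and cytokinesis genes, 33 fell at 72 h, 97.1% of the list against 29.4% of all genes called lower. Among them Iqgap3, Racgap1 and Cdca3 had log2 changes of -5.31, -3.06 and -6.98. Of 32 other kinetochore and centromere genes, 27 fell, 84.4% against the same 29.4%. None rose, against 25.9% of all genes called higher. Cenpm, Pmf1 and Cenpn changed by -4.71, -2.99 and -5.33. All 3 genes particular to condensin II fell, against the same 29.4% of all genes. Their changes were -2.74 for Ncapg2, -1.15 for Ncaph2 and -1.34 for Ncapd3. Of 13 genes of mitotic entry and MuvB, 9 fell, 69.2% of the list against 29.4% of all genes. Among them were Mybl2 at -6.31, Wee1 at -2.64 and Ccnf at -4.31. The 3 that rose were Lin52 at 0.88, Arpp19 at 0.43 and Ensa at 0.42. They were 23.1% of the list, near the 25.9% of all genes called higher.

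Of 15 genes of the anaphase-promoting complex, 5 fell and 1 rose at 72 h, with a median of -0.15. The fallen share of 33.3% was near the 29.4% of all genes called lower. The 1 that rose was 6.67% of the list, against 25.9% of all genes called higher. Its inhibitor Fbxo5 changed by -3.21, Ube2s by -0.97 and the subunit Anapc2 by 0.52. Of 10 cohesin genes, 3 fell, a share of 30% that was near the same 29.4%. The 4 that rose were 40% of that list, against the same 25.9%. Cdca5 changed by -4.27, Smc1a by -1.15 and Stag2 by 0.75. The 25 S-phase genes serve DNA replication. At 8 h none had risen, against 17.9% of all genes called higher. By then 5 had fallen, 20% of the list and near the 21% of all genes called lower. The median log2 change at 8 h was -0.27 against 0.54 for the members. At 24 h all 25 had fallen, where 27.1% of all genes were called lower, with a median of -2.15 against -1.41. Mcm3, Rrm2 and Mcm7 changed by -3.58, -6.34 and -3.39 at 72 h.

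The paired libraries of a time were set side by side, as libraries and not as conditions, by the log2 ratio of scaled CPM, replicate 2 minus replicate 1. The medians over the members were 0.01 at 0 h, 0.24 at 8 h, -1.10 at 24 h, 0.77 at 48 h and -0.02 at 72 h, while the medians over all genes tested were between -0.01 and 0.01. At 8 h, 50 members were higher in replicate 2 and 4 were lower, none past 2-fold, where 1.92% of all genes passed 2-fold upward and 4.75% downward. The 95% counting interval of the ratio lay above 0 for 42 members, below 0 for 2 and across 0 for 10. Such intervals cover counting error only.

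Aspm had the widest gap at 8 h, with 220.1 CPM in replicate 2 and 119 CPM in replicate 1, a log2 ratio of 0.89 [0.78, 1.00] with its 95% interval. Cenpf followed with 0.81 [0.71, 0.92], then Ckap2 with 0.69 [0.52, 0.87] and Kif23 with 0.66 [0.52, 0.80]. Spc24 went the other way, with -0.45 [-0.64, -0.27], as did Incenp with -0.13 [-0.23, -0.04]. Mki67 had 1096 CPM in replicate 2 and 816 CPM in replicate 1. The myeloid progenitor markers were lower in the same library, at 704 TPM in replicate 2 against 1790 TPM in replicate 1 at 8 h, and their part in the gap was not tested.

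At 24 h the gap ran the opposite way and was wider. A total of 53 members were lower in replicate 2, 35 of them at least 2-fold, which is 64.8% of the list against 5.84% of all genes. The interval lay below 0 for 52 members, above 0 for Pttg1 and across 0 for Bub3. Cks2 had the widest gap, with 18.4 CPM in replicate 2 and 55.5 CPM in replicate 1, a log2 ratio of -1.56 [-1.86, -1.33]. Spc24 followed, with -1.44 [-2.06, -1.05], then Bub1b with -1.44 [-1.74, -1.20] and Kif11 with -1.39 [-1.59, -1.23]. Mki67 had 171 CPM in replicate 2 and 404 CPM in replicate 1. Smc4 differed by -0.29 [-0.39, -0.20] and Bub3 by -0.10 [-0.22, 0.03], and Pttg1 was higher in replicate 2, by 0.63 [0.38, 0.92].

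Bub3 and Smc4, with the smallest log2 size of change at 24 h, also had the smallest gaps between the libraries of that time. The progenitor markers summed to 472 TPM in replicate 2 and 1050 TPM in replicate 1 at 24 h. The gap changed sign once more at 48 h, where 45 members were higher in replicate 2 and 23 at least 2-fold so, 42.6% of the list against 1.78% of all genes. Most members had few counts by then.

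**Figure D4:**
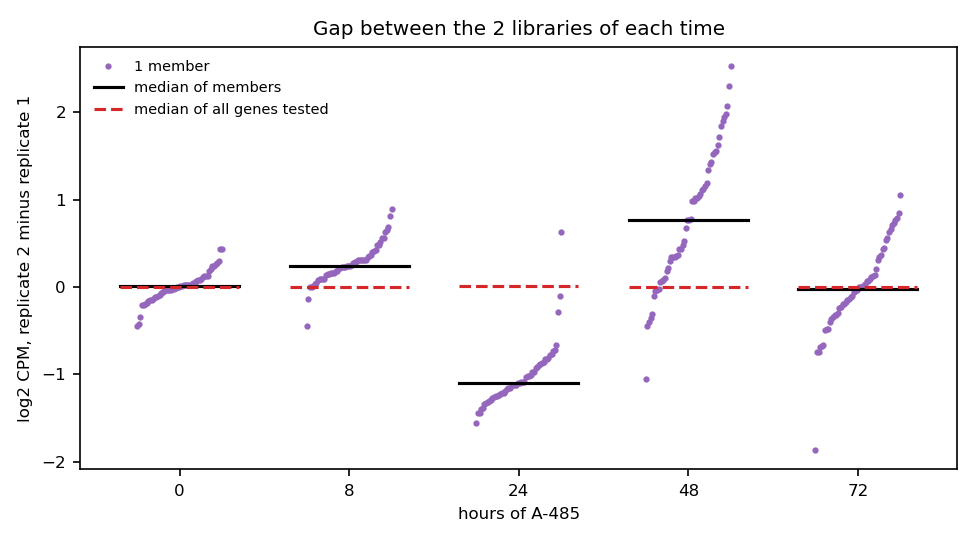
Log2 ratio of scaled CPM, replicate 2 minus replicate 1, for each member (dots, sorted within a time), with the median of the members (black) and of all genes tested (red, dashed). At 24 h 53 dots lie below 0 and Pttg1 lies above, whereas at 0 and 72 h the members lie on both sides of 0.

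The populations from bone marrow were compared as single libraries, with no test. Ratios are log2 of scaled CPM with a 95% interval for counting error in brackets, and counts are of genes at least 2-fold apart. The summed level of the members was 2190 TPM in mAML, 5524 TPM in LSC and 4515 TPM in GMP. The mAML library was the lowest. The untreated LSC of the time course, with 3246 and 3263 TPM, lay below the single LSC library. That library came from bone marrow and was more deeply sequenced, while the time-course cells were grown in medium. The difference was not tested.

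In mAML against LSC all 54 members were lower, with a median of -1.20 against -0.03 for all genes. Of the members, 41 were at least 2-fold lower, 75.9% of the list against 8.58% of all genes, while 16.3% of all genes were at least 2-fold higher. Ube2c differed most, with 112 TPM in mAML, 462 TPM in LSC and 221 TPM in GMP and a ratio of -1.97 [-2.03, -1.91]. Aurka followed with 39.3 TPM in mAML, 135 TPM in LSC and 79.4 TPM in GMP and a ratio of -1.71 [-1.78, -1.64]. Cenpf had 7.39 TPM in mAML, 25.2 TPM in LSC and 13.8 TPM in GMP, a ratio of -1.70 [-1.77, -1.64]. Pttg1 did not differ beyond counting error, with 29.2 TPM in mAML, 32.1 TPM in LSC and 42.2 TPM in GMP and a ratio of -0.02 [-0.19, 0.15]. Smc2, at -0.66 [-0.72, -0.62], and Anln, at -0.69 [-0.76, -0.62], differed least after it.

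Markers of other cell types differed between these libraries. Erythroid markers summed to 3726 TPM in mAML, 39.9 TPM in LSC and 330 TPM in GMP, with 7, 3 and 5 of 11 genes at 1 TPM or more. T and NK cell markers summed to 314, 156 and 1001 TPM in that order, with 11, 2 and 2 of 11 genes at 1 TPM or more, and B cell markers to 66.3, 49.3 and 47.4 TPM, with 3, 1 and 2 of 8. None of these markers was at 0 in mAML, whereas Cd3e, Cd3g, Ncr1, Ms4a1, Pax5 and Hba-a2 were among those at 0 in both LSC and GMP. The 11 monocyte and macrophage markers summed to 23321 TPM in mAML, 5434 TPM in LSC and 5576 TPM in GMP, the 9 mature neutrophil markers to 20739, 5022 and 161 TPM, and the progenitor markers to 2954, 31082 and 40680 TPM. The part of these cells in the lower member levels was not tested.

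In LSC against GMP, 47 members were higher and 7 lower, with a median of 0.53 against 0.01 for all genes. Only 4 were at least 2-fold higher, 7.41% of the list against 13.4% of all genes, and none was 2-fold lower, against 12.2% of all genes. With 1 added to TPM in place of scaled CPM, 2 were at least 2-fold higher, 3.7% of the list against 8.22% of all genes. The 4 were Cdc25b, with 16.1 TPM in mAML, 37.1 TPM in LSC and 13.8 TPM in GMP and a ratio of 1.67 [1.55, 1.80], Ube2c at 1.28 [1.22, 1.34], Ccnb2 at 1.14 [1.08, 1.20] and Cenpf at 1.11 [1.05, 1.18]. Ccnb2 had 99.3 TPM in mAML, 237 TPM in LSC and 126 TPM in GMP. The lowest ratios were those of Cenpi, with 5.72 TPM in mAML, 10.7 TPM in LSC and 14.9 TPM in GMP and -0.24 [-0.37, -0.11], of Top2a at -0.23 [-0.26, -0.21] and of Smc2 at -0.23 [-0.28, -0.18]. S-phase genes ran the other way between these libraries, with a median of -0.49 and 24 of 25 lower in LSC.

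In mAML against GMP the median was -0.78 against 0.03 for all genes, and 52 members were lower. Of these 8 were at least 2-fold lower, 14.8% of the list and near the 15.1% of all genes, while 22.1% of all genes were at least 2-fold higher. This count rose to 27 with library size alone, where the median of all genes was -0.19, and to 34 with 1 added to TPM. The 27 were 50% of the list against 20.4% of all genes, and the 34 were 63% against 18.6%, so the share near that of all genes did not hold with these settings. Kif20b had 7.17 TPM in mAML, 22.1 TPM in LSC and 27.1 TPM in GMP and a ratio of -1.60 [-1.70, -1.50]. Espl1 followed at -1.45 [-1.55, -1.36] and Sgol1 at -1.26 [-1.40, -1.14]. The highest were Cdc25b at 0.53 [0.40, 0.67], Bub3 at 0.04 [-0.01, 0.10] and Ccnb2 at -0.04 [-0.11, 0.03], the last 2 with intervals across 0.

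By TPM 38 members were highest in LSC and lowest in mAML with GMP between. A further 15 were highest in GMP and lowest in mAML, and Cdc25b alone was lowest in GMP. The order of LSC and GMP depended on the scale, as only 7 members were lower in LSC in scaled CPM. For LSC against GMP the median of all genes was -0.20 with 1 added to TPM, against 0.01 in scaled CPM. Mki67 had 65.3 TPM in mAML, 155 TPM in LSC and 134 TPM in GMP, and Cdk1 had 43.5 TPM in mAML, 143 TPM in LSC and 121 TPM in GMP. Among the other Cdk1 regulators, Ccnb1 had 46.9 TPM in mAML, 142 TPM in LSC and 109 TPM in GMP. Cks2 had 159.5 TPM in mAML, 501 TPM in LSC and 442 TPM in GMP. All 4 followed the first order. Foxm1 had 22.1 TPM in mAML, 41.6 TPM in LSC and 31.2 TPM in GMP, and Cdc25c had 7.26 TPM in mAML, 22.6 TPM in LSC and 14.2 TPM in GMP.

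Of the kinases and passenger genes, Plk1 had 36 TPM in mAML, 110.3 TPM in LSC and 78.4 TPM in GMP, and Aurkb had 59.1 TPM in mAML, 139 TPM in LSC and 129 TPM in GMP. Birc5 had 118 TPM in mAML, 257 TPM in LSC and 222 TPM in GMP, and Cdca8 had 62 TPM in mAML, 192 TPM in LSC and 132 TPM in GMP. These again were highest in LSC and lowest in mAML. Bub3 had 101 TPM in mAML, 199 TPM in LSC and 121 TPM in GMP, in the same order. Of the Ndc80 complex, Spc25 had 24 TPM in mAML, 64.4 TPM in LSC and 51 TPM in GMP, and Nuf2 had 29.5 TPM in mAML, 89.3 TPM in LSC and 66.1 TPM in GMP. Spc24 had 30.6 TPM in mAML, 65.8 TPM in LSC and 70.5 TPM in GMP, and alone in that complex was highest in GMP by TPM. In scaled CPM Spc24 was higher in LSC than in GMP, with a ratio of 0.13 [0.03, 0.23].

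Of the spindle proteins, Tpx2 had 38.7 TPM in mAML, 108 TPM in LSC and 81.2 TPM in GMP, and Prc1 had 34.2 TPM in mAML, 95.2 TPM in LSC and 70.3 TPM in GMP. Ckap2 had 17.6 TPM in mAML, 36.4 TPM in LSC and 26.6 TPM in GMP, and Hmmr had 18.2 TPM in mAML, 57.5 TPM in LSC and 42.8 TPM in GMP. Aspm had 5.1 TPM in mAML, 16.8 TPM in LSC and 11.3 TPM in GMP, in the same order. In the cytokinesis scaffold, Ect2 had 16 TPM in mAML, 39 TPM in LSC and 38.9 TPM in GMP. Anln had 15.9 TPM in mAML, 26.9 TPM in LSC and 27.4 TPM in GMP. By TPM LSC and GMP were nearly level for both. In scaled CPM both were higher in LSC than in GMP, Ect2 at 0.25 [0.18, 0.32] and Anln at 0.22 [0.14, 0.29].

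Of the anaphase genes, Cdc20 had 57.4 TPM in mAML, 166 TPM in LSC and 123 TPM in GMP, highest in LSC. Espl1 had 6.86 TPM in mAML, 17.6 TPM in LSC and 23.3 TPM in GMP, highest in GMP. Sgol1 had 7.24 TPM in mAML, 23.3 TPM in LSC and 21.7 TPM in GMP. Of the chromosome genes, Smc4 had 80.9 TPM in mAML, 176 TPM in LSC and 165 TPM in GMP, highest in LSC, and Smc2 had 30.9 TPM in mAML, 51.4 TPM in LSC and 71.4 TPM in GMP, highest in GMP. Top2a, with 109 TPM in mAML, 190.2 TPM in LSC and 265 TPM in GMP, was likewise highest in GMP.

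**Figure D5:**
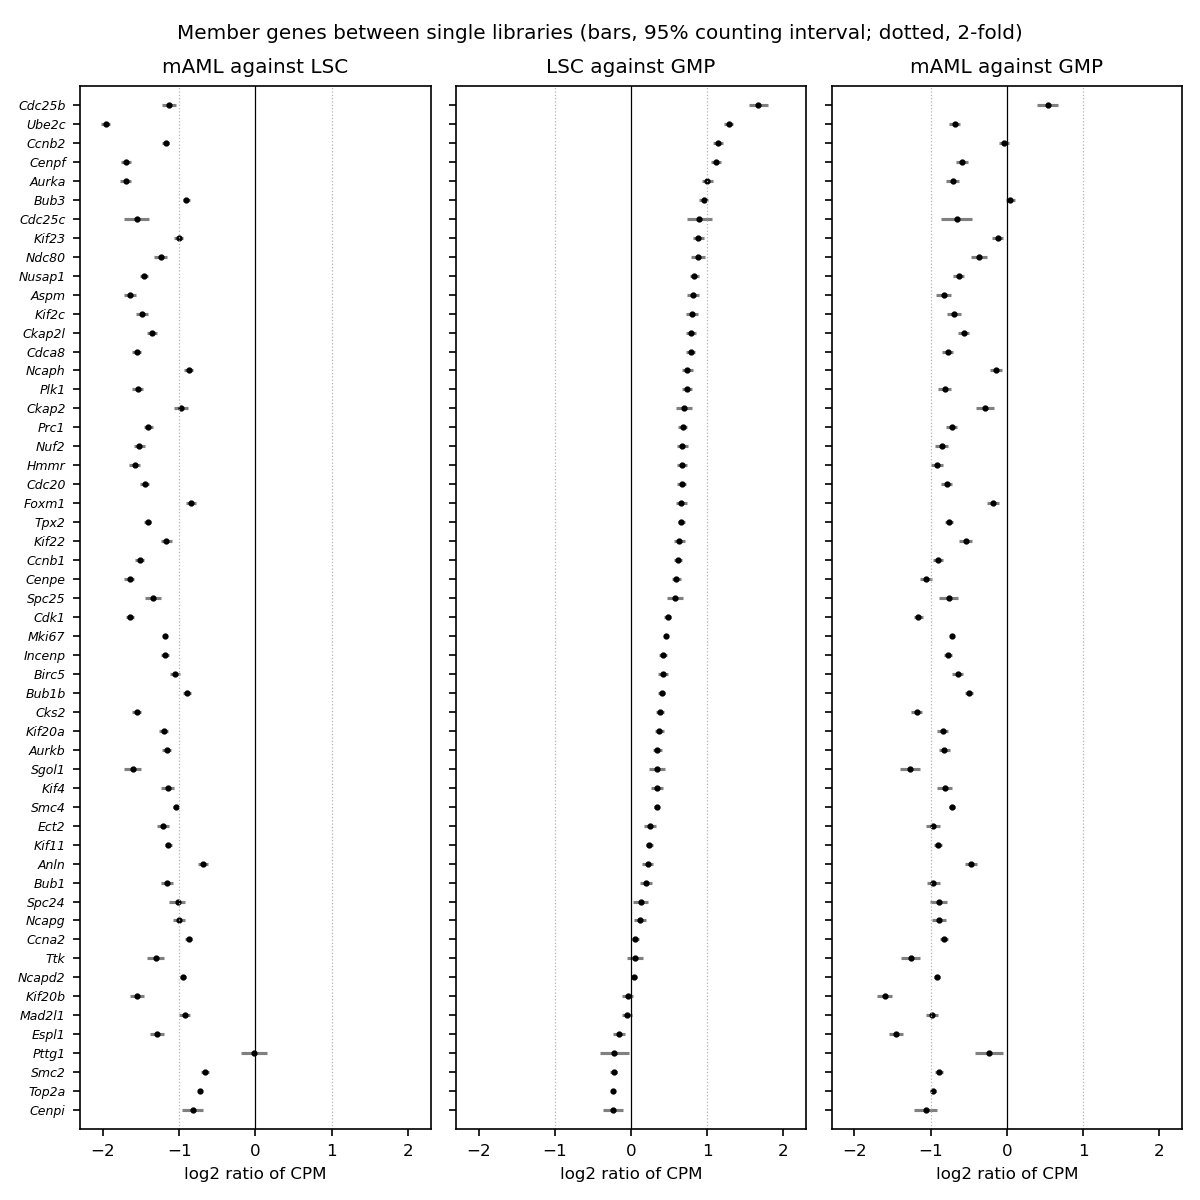
Log2 ratio of scaled CPM for each member between single libraries, in panels for mAML against LSC, LSC against GMP and mAML against GMP, with 95% counting intervals as bars and dotted lines at 2-fold. All 54 points lie left of 0 in mAML against LSC, 47 lie right of 0 in LSC against GMP, and the Pttg1 interval crosses 0 in the first panel.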

How the data were processed

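Per the submitters' processing notes, the authors aligned reads with STAR and quantified them with RSEM on mm9; their versions, settings and strand handling are not given in the sources used here. As the file headers show, the deposited files hold an expected count, a TPM and an FPKM value per gene with an effective length. The deposited expected counts are estimated reads, not scaled to depth, and were rounded. The deposited TPM, scaled by the authors for length and depth within a library, were used as levels; the deposited FPKM were not used.

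The 54 members and the other lists were chosen with earlier results of these data known. All 10 time-course libraries entered 1 model in edgeR 4.0.16 (R 4.3.3; TMM, filterByExpr, 11119 genes, time as factor, quasi-likelihood test, Benjamini-Hochberg). Each SE was taken as the size of the log2 change over the root of its F statistic. The common biological coefficient of variation was 0.186. TMM factors were 0.83 and 0.832 at 0 h and from 1.03 to 1.07 later. On simulated data with 10795 genes the test recovered 64%, 56%, 55% and 51% of 2-fold changes at 8, 24, 48 and 72 h and 98% to 100% of 4-fold ones. There 100 genes were changed at each fold, and 5 to 12 of the 160 to 168 calls per time were false. In the data itself 4324 to 6186 genes were called against 0 h, so the rates may differ. Single libraries and the libraries of 1 time were compared by log2 ratios of CPM scaled by TMM (prior count 5) with exact binomial 95% intervals; single libraries were compared over genes reaching 1 CPM in either. Alternatives included limma 3.58.1 and DESeq2 1.42.0. Members named were a fixed core of 9, the 2 of highest TPM per role, and those of extreme change, gap or ratio; comparisons of neighbours in the text add others.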

Additional observations from a re-analysis of the deposited data

How the results depend on the processing

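The count of members called higher at 8 h against 0 h was 5, and became 23 with library size alone, 13 with no filter on low counts (24.1% of the list against 13% of all genes), 9 with the DESeq2 test, 27 with limma on log2(TPM + 1) and 20 without the 24 h libraries, an alternative chosen after seeing the data; with 1 library left out it ran from 3 to 20. Leaving out 1 library gave 29 to 52 members lower at 24 h, 0 or 1 higher and 53 lower at 48 h, 1 higher and 53 lower at 72 h, 37 to 53 lower at 24 h against 8 h, 0 to 51 lower at 48 h against 24 h, and 53 lower at 72 h against 8 h. At 72 h against 48 h the DESeq2 test called 1 lower. The lone library left in such a fit is assumed to vary like the other times. With limma at 8 h, 4859 of the 11119 genes tested were called higher, beside the 27 members. The limma median of all genes was 0.41 at 8 h, 0.43 at 24 h and 0.62 at 72 h. Signs turned at 8 h for Aurkb (0.24 with library size alone, 0.37 with limma, 0.038 without 0 h replicate 1, and with 1 library left out from -0.155 to 0.0376), Cdca8 (0.18 with library size alone, 0.31 with limma) and Ncapd2 (-0.0053 with the length trend removed), for Bub3 with limma at 24 h (0.065) and 72 h (0.13), and for Pttg1 at 72 h against 8 h with the length trend removed (0.13). Members at least 2-fold apart numbered 2 higher in LSC against GMP with 1 added to TPM, and in mAML against GMP 27 lower with library size alone and 34 with 1 added to TPM. Without Cks2 the summed TPM was 2831 and 2861 at 0 h, 380 and 469 at 48 h, and 471 in 72 h replicate 1. The causes of these differences were not tested. Replicate numbers did not pair the libraries in the same way over all times. The differences between replicates, over all genes tested, correlated at 0.66 between 8 and 24 h. They correlated at -0.44 between 8 and 72 h and between 24 and 72 h. With the replicate block 4 members were called higher at 8 h, without Ckap2 (0.85, edgeR adjusted p = 0.0621), 43 lower at 24 h and 53 lower at 48 and 72 h. In that fit 1902 of the 11119 genes tested were called higher at 8 h. Those called lower numbered 2971 at 24 h, 3341 at 48 h and 3220 at 72 h. At 72 h many members rested on few counts, and depth limits their late values.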
